A study of Mus musculus with 12 samples.

Results

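Replication-dependent histone genes were examined in tumors grown from CT-26, a line of mouse colon carcinoma cells. Genes were taken by their symbol, which had to start with Hist1h, Hist2h, Hist3h or Hist4h in the mouse GENCODE annotation. This gave 66 of the 30630 genes listed in the files, and 4 others with such symbols (Hist1h1t, Hist1h2aa, Hist2h2aa1 and Hist2h2aa2) were not analysed here. The 66 genes comprised 5 of linker histone H1, 17 of H2A, 19 of H2B, 12 of H3 and 13 of H4. These numbers include Hist1h2al and Hist1h2aj of H2A and Hist3h2bb-ps of H2B, which are annotated as pseudogenes. CT-26 cells had been injected under the skin of BALB/c mice, and the mice of the swimming group were trained by swimming for 3 weeks while the mice of the control group carried the same tumors without this training. RNA-Seq was performed on 6 tumors of the control group and 6 tumors of the swimming group after removal of ribosomal RNA. Each tumor was from a different mouse, and all of them came from 1 cell line. Values are in FPKM, a number of fragments scaled to the length of the gene and to the size of the library.

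Most eukaryotic mRNAs end in a poly(A) tail. The mRNAs of replication-dependent histones end instead in a short stem-loop, which is bound by the protein Slbp and lies just before the place where the transcript is cut. These genes lie in clusters without introns in most members, are transcribed when DNA is copied, and supply the histones that pack the new DNA. Their mRNAs are degraded when DNA synthesis stops. Some of them can also end in a poly(A) tail, as is known from cells that have left the cell cycle. A second class, the replication-independent variants such as H2afz, H3f3a and H3f3b, lies elsewhere and is in general polyadenylated throughout the cell cycle.

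The stem-loop was searched in the annotated transcripts of the 66 genes as GGNNCTTTTNAGNGCC on the coding strand, a pattern of 16 letters in which N is any base. It was present in 39 of the 66 genes (59.1%) and in 6 of 30476 other genes of the files (0.0197%). The 6 others included H2afx, the variant H2A.X, which is known to make both kinds of mRNA end, and Trim17, whose exons overlap those of Hist3h2a. The stem-loops of 6 genes that recur below are shown because they carry the ends that an mRNA without a tail would have, with the 16 letters in capitals and up to 5 bases on each side:
Hist1h1c: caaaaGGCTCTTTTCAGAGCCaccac
Hist2h2ac: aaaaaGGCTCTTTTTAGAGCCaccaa
Hist1h2bk: ccaaaGGCTCTTTTAAGAGCCactaa
Hist1h2ad: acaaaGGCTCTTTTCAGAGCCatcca
Hist1h2ap: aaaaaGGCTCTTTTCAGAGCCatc
Hist1h4i: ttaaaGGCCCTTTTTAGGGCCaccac
The stem letters followed the family. All 9 H4 genes with a match had GGCCC paired with GGGCC, and the 30 matches of H1, H2A, H2B and H3 had GGCTC paired with GAGCC. The loop letters were TTTC in 31 of the 39 genes, TTTA in 5 genes of H2B and H3, and TTTT in Hist2h2ac, Hist1h4i and Hist2h4. In the other 27 genes these letters were not in the annotated transcript. A transcript annotated without its full 3′ end would give no match, so these genes need not lack the stem-loop. Those of Hist1h4k and Hist1h3i, for example, had 312 and 411 bases, while that of Hist2h2be had 2620.

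The replication-dependent histone genes were weakly expressed in all 12 tumors. The 66 genes together had between 61.9 and 90.4 FPKM per tumor, which was 0.0156% to 0.0229% of all FPKM. In every tumor this sum lay below the FPKM of the single variant gene H2afz, which ranged from 144 to 216 FPKM with a mean of 176. The 11 replication-independent variants, among which H2afx was counted, together had 716 to 954 FPKM. This was 8.31 to 14.7 times the sum of the 66 genes in the same tumor. H1f0 had a mean of 222 FPKM, H3f3b 204, H3f3a 82.6 and H2afx 68.0. The median of the 66 gene means was 0.509 FPKM, against 3.36 FPKM for the genes that passed the filter on low values. Only 13 of the 66 genes had a mean of at least 1 FPKM.

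The median of the gene means was 16.9 FPKM for genes of G1/S and S phase, 9.51 FPKM for genes of histone mRNA production (from Zfp473 with 0.110 FPKM upwards) and 16.97 FPKM for 6 RNAs that lack a poly(A) tail. Pcna, the clamp that holds DNA polymerase on the template, had 141 to 198 FPKM, and Mki67, a marker of dividing cells, had 30.7 to 56.4 FPKM. Slbp, which binds the stem-loop, had 11.8 to 14.8 FPKM. Npat, the activator of histone transcription in S phase, had 5.13 to 7.34 FPKM, and Lsm11, a part of the U7 particle that cuts the histone mRNA, had 2.52 to 3.52 FPKM. Of the RNAs without a poly(A) tail that were looked up after the histone levels had been seen, Rn7s2 and Rn7s1 (the RNA of the signal recognition particle) had means of 68.6 and 68.0 FPKM. Rn7sk had 22.2, Rmrp 11.7, Rpph1 2.85 and Terc, the RNA of telomerase, 0.840 FPKM. Removal of ribosomal RNA would in principle leave mRNAs without a tail in the library. What the low histone values come from was not tested.

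**Figure D1:**
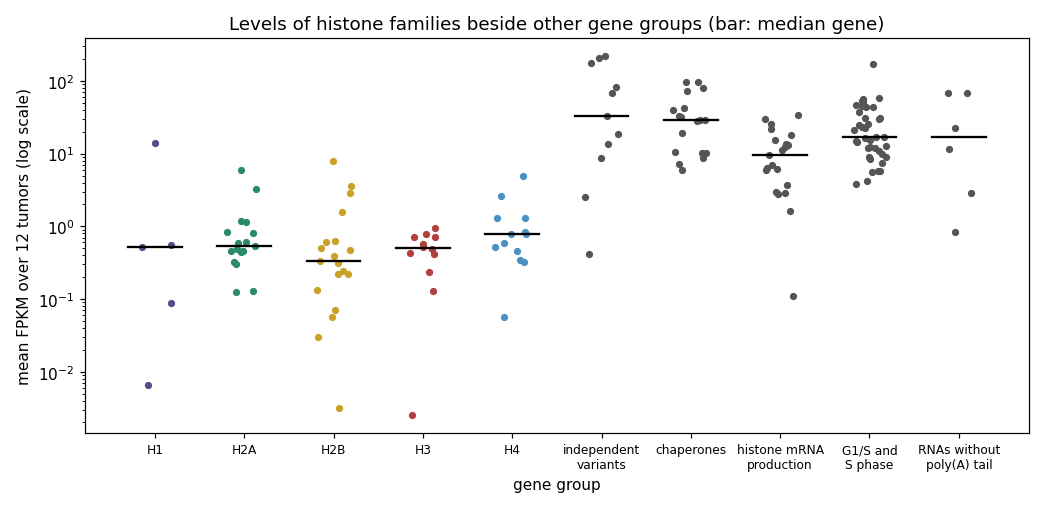
Mean FPKM over the 12 tumors (log axis) of each gene of the 5 replication-dependent histone families and of 5 other gene groups; each point is a gene and each bar the median gene of its group. The medians of the histone families lie below 1 FPKM, while those of the other groups lie above 9 FPKM.

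A few genes carried much of the signal. The 5 genes with the highest means held 49.3% of the summed FPKM and the 15 highest held 72.4%. Hist1h1c, which encodes the linker histone H1.2, was the highest, with 10.4 to 19.6 FPKM (median 15.03) in control tumors and 8.55 to 16.7 FPKM (median 14.4) in swimming tumors. Hist1h1c lies at chr13:23738808-23740367 of GRCm38 on the plus strand, and its annotated transcript of 1560 bases runs 840 bases past the stem-loop. The other H1 genes were far below it, with means of 0.557 FPKM for Hist1h1e, 0.523 for Hist1h1b, 0.0889 for Hist1h1d and 0.00657 for Hist1h1a.

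Hist1h2bc, an H2B gene at chr13:23684199-23692908 (plus strand), followed with 7.12 to 10.3 FPKM (median 7.95) in control tumors and 6.34 to 10.5 FPKM (median 7.09) in swimming tumors. Hist1h2al was the third, with 4.47 to 7.31 FPKM (median 5.62) in control tumors and 4.87 to 7.15 FPKM (median 6.40) in swimming tumors. Hist1h2al is annotated as a processed pseudogene at chr13:51202727-51203065 (minus strand), away from the main cluster, and overlaps Gm44341. Hist1h4i, which encodes H4 and lies at chr13:22040636-22041362 (minus strand), differed most between tumors among the genes with a mean of at least 1 FPKM, with a coefficient of variation of 71.8%. It had 1.73 to 14.5 FPKM (median 4.95) in control tumors and 2.13 to 5.65 FPKM (median 3.25) in swimming tumors. Both its lowest and its highest value were from control tumors, control 3 and control 4. Control 4 also had the highest summed FPKM of the 8 colon epithelium markers found, 323 against 119 to 212 in the other tumors. The part of these markers in the Hist1h4i value was not tested.

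Hist2h2be, an H2B gene at chr3:96221119-96223738 (plus strand), had 2.39 to 3.81 FPKM (median 3.32) in control tumors and 3.02 to 4.61 FPKM (median 3.96) in swimming tumors. It shares no stretch of 50 bases with any other annotated transcript. Hist3h2a, an H2A gene at chr11:58954685-58956830, had 2.09 to 4.05 FPKM (median 3.56) in control tumors and 2.59 to 4.14 FPKM (median 3.14) in swimming tumors. Its exons overlap Trim17, and no source used here states that reads were assigned by strand, so that reads of the 2 genes may not be separable. Steadiest among the genes with a mean of at least 1 FPKM were Hist1h2al, Hist1h2bc and Hist2h2be, with coefficients of variation of 16.6%, 17.4% and 17.8%. Most variable after Hist1h4i were Hist1h2af (54.0%) and Hist1h4h (44.7%).

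The remaining genes of the 15 highest had means between 0.842 and 2.87 FPKM. Hist1h2bg had a mean of 2.87 FPKM, Hist1h4k 2.63, Hist1h2bk 1.56, Hist1h4n 1.31, Hist1h4h 1.31, Hist2h2ac 1.17, Hist1h2af 1.14, Hist1h3i 0.935 and Hist1h4f 0.842. No H3 gene reached a mean of 1 FPKM, and Hist1h3i was the highest of the 12. At the other end, 15 of the 66 genes were listed at 0 in at least 1 tumor and none in all 12. Hist1h1a, Hist1h2ba and Hist2h3b were above 0 in 1 tumor each. Hist1h2ba, an H2B made in the testis, was at 0 in 11 tumors and at 0.0376 FPKM in swimming 1. Hist1h1a, a linker histone gene, was above 0 in swimming 5 alone, at 0.0788 FPKM. In the order of the means, the ranges over the 12 tumors overlapped in all 65 pairs of neighbouring genes.

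**Figure D2:**
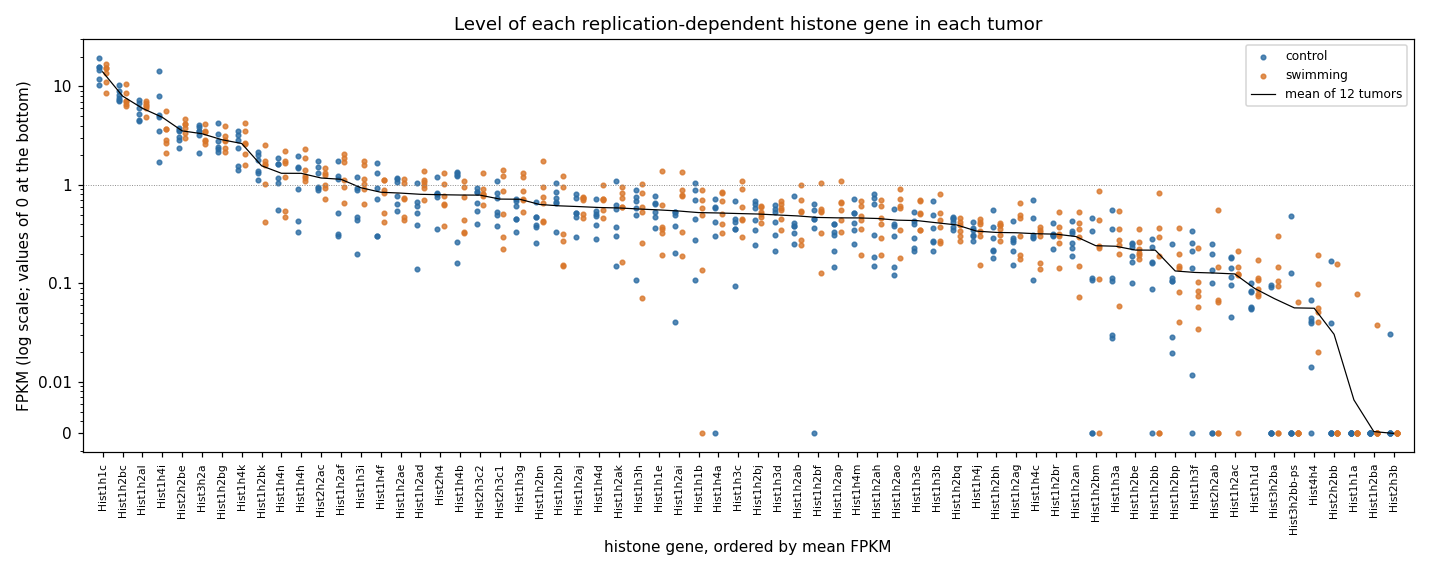
FPKM of the 66 replication-dependent histone genes in each tumor (log axis, with values of 0 drawn at the bottom), ordered by the mean over the 12 tumors, which the line joins; blue points are control tumors and orange points swimming tumors. Hist1h1c stands at the top with 8.55 to 19.6 FPKM, 13 genes have a mean of at least 1 FPKM, and the colors overlap for every gene.

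Histone genes resemble each other, and this limits what the value of 1 gene means. Of the 66 genes, 63 shared at least 1 stretch of 50 bases with another annotated transcript. In 12 genes fewer than 10% of such stretches were unique to the gene, and in 12 others at least 80% were. Hist1h2bq, an H2B gene, had 1.5% unique stretches, Hist1h2af 6.0% and Hist1h2ap 6.9%. In such genes the deposited value rests on how reads were divided between copies. The longest annotated transcript of a gene had 312 to 7425 bases and was under 500 bases in 29 genes.

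The length of the annotated transcript after the stem-loop was compared with the level. In 19 of the 39 genes with a match, the annotated transcript ended 3 to 74 bases after the stem-loop. In the other 20 genes the annotated transcript ran on for 151 to 4884 bases. The boundary of 100 bases between these classes was set after the lengths had been seen. The median of the gene means was 0.467 FPKM in the first class, 0.526 FPKM in the second and 0.543 FPKM in the 27 genes without a match. Of the 5 genes with the highest means, Hist1h1c and Hist1h4i were in the second class, and Hist1h2bc, Hist1h2al and Hist2h2be had no match. The highest gene of the first class was Hist1h2bk with a mean of 1.56 FPKM. Where reads fell along these transcripts could not be seen in values per gene.

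**Figure D3:**
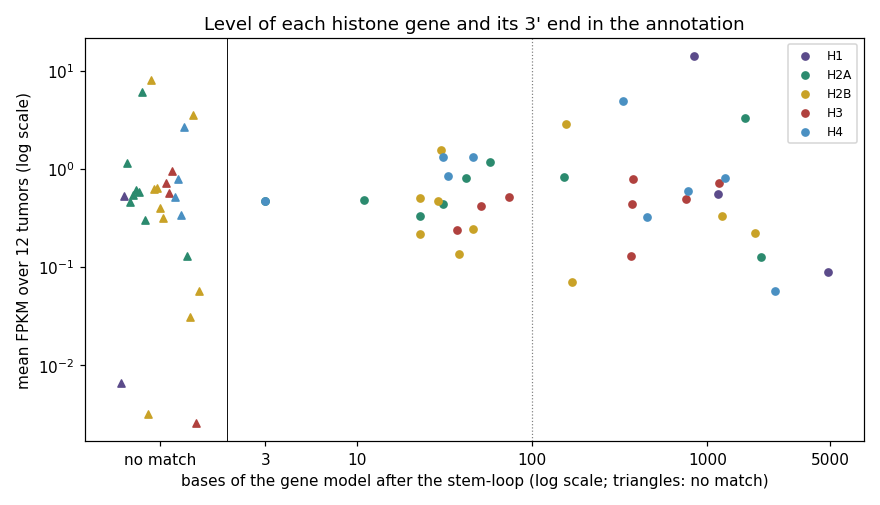
Mean FPKM over the 12 tumors (log axis) of each histone gene against the number of bases of its annotated transcript that follow the stem-loop (log axis), with genes without a match as triangles on the left; colors are families and the dotted line marks 100 bases. The medians are 0.467, 0.526 and 0.543 FPKM, and the class that ends within 100 bases holds neither the highest nor the lowest genes.

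H2A and H2B genes often stand back to back and share the DNA between their starts. Of the members, 13 H2A and H2B pairs had starts within 500 bases on opposite strands. Within these pairs the mean levels differed by 2.24 times in the median, and 7 of the 13 pairs differed by more than 2 times. Hist1h2ak and Hist1h2bn were alike, with means of 0.583 and 0.632 FPKM. Hist1h2ac and Hist1h2bc, whose starts are 251 bases apart, had means of 0.125 and 7.97 FPKM, a ratio of 64.0. The annotated transcript of Hist1h2ac has 2482 bases, of which 2010 follow the stem-loop, and FPKM are scaled to this length. In Hist1h2bc 69.4% of the 50-base stretches were unique, and it shared stretches with 220 other genes. The part of these traits in the ratio was not tested. Hist3h2bb-ps, a pseudogene, and Hist3h2a had means of 0.0564 and 3.31 FPKM, a ratio of 58.6. Hist1h2aj, also annotated as a pseudogene, and Hist1h2bm had means of 0.602 and 0.241 FPKM, a ratio of 2.49. Hist1h2ac was at 0 FPKM in swimming 2 and at most 0.214 FPKM in the other tumors, below every value of Hist1h2bc.

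Promoters from 250 bases before to 50 bases after the start were found in RefSeq (GRCm38.p6) for 58 of the 66 genes. The CCAAT box (CCAAT, searched on both strands like the others) was in 84.5% of the 58 promoters, against 41.1% of the promoters of 27025 genes. It was in every matched promoter of H1, H2A, H2B and H3, and in 3 of 12 of H4. TATAAA was in 56.9% against 15.7%. The octamer ATTTGCAT, the site known for Pou2f1 at H2B genes, was in 22.4% against 1.97%, and no promoter of H1, H3 or H4 held it. The H1 box AAACACA was in 4 of 5 H1 promoters and in 12.1% of all 58, against 8.22%. Each motif was counted for itself, also where its letters overlap those of another. The 58 promoters are not all separate DNA. Those of H2A and H2B genes that stand back to back can overlap, as at Hist1h2ae and Hist1h2bg, and a site there is counted for both genes. The promoters of Hist1h2bq and Hist1h2br have the same letters. The promoters of Hist1h1c, the highest gene, of Hist1h2ac, which spans the starts of the most unequal pair, and of Hist1h4i, the most variable of the stronger genes, show the difference between families (motif letters on either strand in capitals, each printed along the direction of its gene):
Hist1h1c, chr13:23738557-23738856, plus strand: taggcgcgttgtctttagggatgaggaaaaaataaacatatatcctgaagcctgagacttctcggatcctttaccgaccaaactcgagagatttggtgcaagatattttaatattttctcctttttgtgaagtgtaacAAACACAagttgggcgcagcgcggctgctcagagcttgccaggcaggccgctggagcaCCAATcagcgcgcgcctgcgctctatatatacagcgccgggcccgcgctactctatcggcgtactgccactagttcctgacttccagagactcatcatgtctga
Hist1h2ac, chr13:23683910-23684209, minus strand: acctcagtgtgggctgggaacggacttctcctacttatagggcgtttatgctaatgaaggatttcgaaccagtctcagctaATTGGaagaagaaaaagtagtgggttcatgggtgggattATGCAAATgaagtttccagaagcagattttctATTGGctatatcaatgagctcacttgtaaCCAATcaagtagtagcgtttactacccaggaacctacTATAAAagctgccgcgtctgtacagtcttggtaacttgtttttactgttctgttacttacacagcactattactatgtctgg
Hist1h4i, chr13:22041313-22041612, minus strand: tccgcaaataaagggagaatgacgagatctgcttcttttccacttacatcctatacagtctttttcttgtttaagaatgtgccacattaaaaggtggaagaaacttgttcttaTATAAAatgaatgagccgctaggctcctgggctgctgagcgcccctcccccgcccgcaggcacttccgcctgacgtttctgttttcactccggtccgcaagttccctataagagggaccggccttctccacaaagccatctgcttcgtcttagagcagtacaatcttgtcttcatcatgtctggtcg
These matches are letters in a window and say nothing of which factor was bound.

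Whether swimming went with a change of the histone genes was then compared between the groups. No histone gene passed an adjusted p of 0.05 in limma on log2(FPKM + 1), with Benjamini-Hochberg adjustment over the 19018 genes tested, and neither did any other gene (0%). Of the 66 genes, 58 passed the filter of at least 0.1 FPKM in at least 6 tumors. At an unadjusted p below 0.05, 6 of the 58 were higher in the swimming group (10.3%) and 0 were lower, against 3.11% higher and 2.46% lower (5.56% in either direction) of all genes tested. The 6 genes were Hist1h2ad, Hist1h2ap, Hist1h3g, Hist1h3i, Hist1h2bn and Hist1h4d. Each had a mean below 1 FPKM, and of all genes tested with such means 3.34% were higher and 5.47% differed in either direction at this p. No histone gene had groups that did not overlap, which was found in 0.0789% (higher) and 0.0684% (lower) of all genes. In bulk tumors, fewer cells of a type and less RNA per cell cannot be told apart.

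The summed FPKM of the 66 genes was 73.1 ± 8.69 (SD, n = 6) in the control group and 74.5 ± 10.4 (SD, n = 6) in the swimming group. The difference of 1.38 FPKM was smaller than either SD. The control tumors ranged from 61.9 to 86.1 FPKM and the swimming tumors from 63.3 to 90.4 FPKM. By family, H1 had 15.8 ± 2.92 and 14.6 ± 3.29 FPKM, H2A 16.4 ± 2.27 and 18.9 ± 1.72, H2B 19.9 ± 2.55 and 20.5 ± 3.69, H3 5.13 ± 0.743 and 6.76 ± 1.54, and H4 15.9 ± 5.81 and 13.7 ± 2.23 (mean ± SD, n = 6, control and swimming). For H3 the control tumors had 4.19 to 6.31 FPKM and the swimming tumors 5.27 to 9.54 FPKM, with swimming 4 at the top. For H2A the 2 ranges were 13.8 to 19.2 and 16.8 to 20.7 FPKM. The ranges of the groups overlapped in all 5 families.

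**Figure D4:**
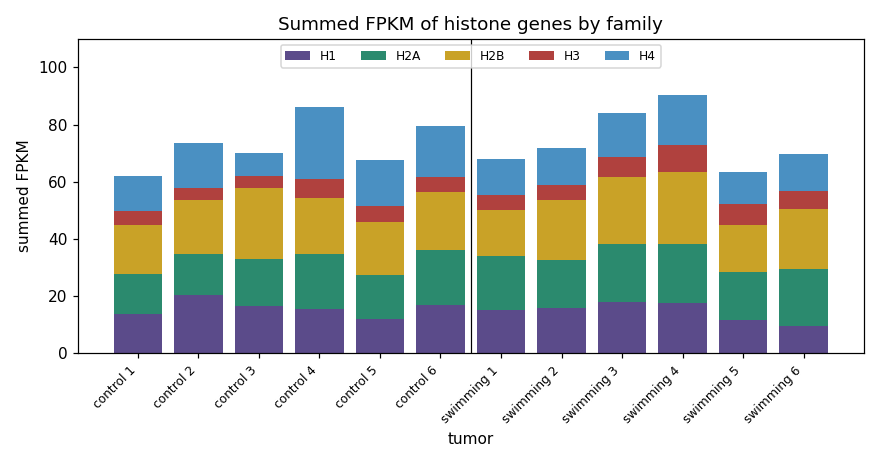
Summed FPKM of the histone genes in each tumor, stacked by family (H1, H2A, H2B, H3 and H4), with the 6 control tumors left and the 6 swimming tumors right of the line. The sums lie between 61.9 and 86.1 FPKM in the control group and between 63.3 and 90.4 FPKM in the swimming group, and control 4 has the largest H4 share.

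Among the genes with the highest levels, the 95% interval of the group difference included 0. Hist1h1c differed by -0.12 on the log2(FPKM + 1) scale (95% interval -0.48 to 0.24), Hist1h2bc by -0.10 (-0.35 to 0.16) and Hist1h2al by 0.12 (-0.13 to 0.37). Hist2h2be differed by 0.20 (-0.02 to 0.43), with 5 of 6 swimming tumors above the control median (exact permutation test, p = 0.0909). Hist1h4i differed by -0.54 (-1.27 to 0.19; exact permutation test, p = 0.203), with 1 of 6 swimming tumors above the control median, and this difference was -0.28 without control 4 and -0.78 without control 3, when its unadjusted p in limma was 0.0191. Of the 13 genes with a mean of at least 1 FPKM, 0 were past an unadjusted p of 0.05. Of all genes tested 5.56% were, and the median difference of the 13 genes was -0.03.

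The genes with the smallest p were weak ones. Hist1h2ad, an H2A gene at chr13:23574381-23574952 (plus strand), had 0.141 to 1.05 FPKM (median 0.566) in control tumors and 0.706 to 1.39 FPKM (median 1.04) in swimming tumors. All 6 swimming tumors were above the control median, and control 5 was the only control above the lowest of them. The difference was 0.40 (SE 0.12) on the log2(FPKM + 1) scale, with an unadjusted p of 0.00703, an adjusted p of 0.889 in limma and an exact permutation p of 0.0152. Hist1h2ap, an H2A gene at chr13:21833026-21833507 (minus strand), had 0.146 to 0.4001 FPKM (median 0.324) in control tumors and 0.331 to 1.10 FPKM (median 0.604) in swimming tumors. Of the swimming tumors 6 were above the control median, and the difference was 0.31 (SE 0.10; exact permutation test, p = 0.0108). These sizes depend on the pseudocount, and with 0.1 and 0.01 FPKM in place of 1 they were 0.90 and 1.06 for Hist1h2ad and 0.82 and 1.01 for Hist1h2ap. Hist1h3g, an H3 gene, had 0.334 to 0.726 FPKM (median 0.530) and 0.529 to 1.31 FPKM (median 0.796), a difference of 0.28 (exact permutation test, p = 0.0303). The differences of Hist1h3i (0.38), Hist1h2bn (0.31) and Hist1h4d (0.18) had exact permutation p-values of 0.0584, 0.0563 and 0.0628. In 5 of the 6 genes, Hist1h4d being the exception with 89.8%, fewer than 50% of the 50-base stretches were unique, from 6.9% in Hist1h2ap to 45.9% in Hist1h3g.

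In the other direction, the smallest p-values belonged to Hist1h4i, Hist1h2bl, Hist1h2bq, Hist1h3f and Hist1h4b, and none was below 0.05. Hist1h4b, which encodes H4, had 0.162 to 1.36 FPKM (median 1.25) in control tumors and 0.325 to 1.10 FPKM (median 0.591) in swimming tumors. None of the swimming tumors was above the control median, but 2 control tumors were lower than every swimming tumor, and the difference was -0.19 (-0.63 to 0.25). Hist1h2bl had 0.332 to 1.05 FPKM (median 0.707) and 0.151 to 1.23 FPKM (median 0.291), with swimming 4 above all controls. For Hist1h2bq the difference was -0.06 (-0.17 to 0.05), and for Hist1h3f it was -0.08 (-0.24 to 0.09).

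Of the 58 genes tested, 38 had a difference above 0 (65.5%), against 51.7% of all genes tested, and the median was 0.05 against 0.00387. By family, the counts were 0 of 3 in H1, 12 of 17 in H2A, 11 of 15 in H2B, 9 of 11 in H3 and 6 of 12 in H4. In the 25 genes tested with at least 50% unique stretches, the median was 0.00597. Of them 1 was higher at an unadjusted p below 0.05 (4%). In the 33 genes with fewer, the median was 0.09 and 5 were higher at this p (15.15%). The share was 3.11% of all genes tested, and the limit of 50% was set after the values had been seen. The 53 genes with a mean below 1 FPKM summed to 20.2 ± 2.39 and 24.1 ± 4.64 FPKM in control and swimming tumors (SD, n = 6), with ranges of 17.7 to 22.5 and 19.3 to 32.3 FPKM. The highest of these sums was from swimming 4.

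**Figure D5:**
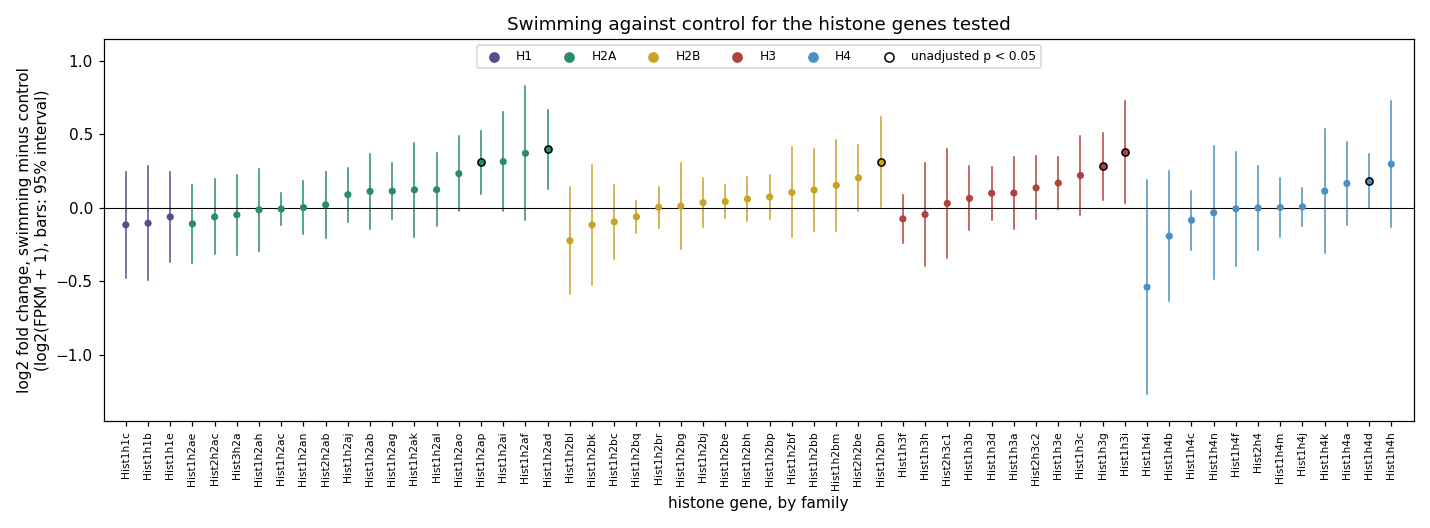
Difference between the swimming and the control group on the log2(FPKM + 1) scale for the 58 histone genes tested, ordered within each family; points are estimates, bars 95% intervals, and black rings mark an unadjusted p below 0.05. The 6 ringed genes lie above 0, at 0.18 to 0.40, and the longest bar is that of Hist1h4i, from -1.27 to 0.19.

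One tumor had the highest value in many of these genes. Genes that share stretches of sequence may share reads, so they are not separate observations. Swimming 4 had the highest value of the 12 tumors in 21 of the 58 genes (36.2%), against 7.22% of all genes tested, and the lowest value in 0. It had the highest value of Hist1h3i (1.77 FPKM), Hist1h2bn (1.74 FPKM), Hist1h2ap (1.10 FPKM) and Hist1h3g (1.31 FPKM). Without swimming 4, 3 of the 6 genes (Hist1h2ad, Hist1h2ap and Hist1h3g) remained at an unadjusted p below 0.05, and Hist1h1e and Hist1h2bl were then lower in the swimming group at this p. The summed difference was then -1.81 FPKM. Relative depth, taken from the values of weakly expressed genes and set against control 1, was 0.871 in swimming 4 and 0.693 to 1.00 in the others. Swimming 4 also had the highest summed FPKM of the 22 G2 and M phase genes, 829 against 537 to 802 in the other tumors, and of the 6 erythroid markers, 1239 against 152 to 601, of which none of the defining globin genes was at 0. Their part in the histone values was not tested. Swimming 5 had the highest sum of the 39 G1/S and S phase genes, 1195 FPKM, and swimming 4 was next with 1147 FPKM. The summed histone level of swimming 5 was 63.3 FPKM, the second lowest of the 12 tumors. That of swimming 4 was 90.4 FPKM, the highest, with 86.1 FPKM in control 4. Whether the 2 sums go together was not tested.

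The genes that make, process, carry and replace histones were compared in the same fit. Of the 21 genes for transcription and 3′ end processing of histone mRNA, 0 were past an unadjusted p of 0.05. The share was 5.56% of all genes tested in either direction, and the median difference of the 21 genes was 0.04. Slbp had 12.9 ± 1.09 and 13.9 ± 1.09 FPKM in control and swimming tumors (SD, n = 6), a difference of 0.10 on the log2(FPKM + 1) scale (exact permutation test, p = 0.145). Npat differed by -0.03 and Lsm11 by 0.01. None of the 11 replication-independent variants was past this p either. In lists this short, a count of 0 is near the share of all genes. H2afz had 175 ± 15.5 and 178 ± 26.0 FPKM (SD, n = 6). H1fx was listed at 0 in control 3, control 5 and swimming 1. Of the 18 chaperones, which hand histones to DNA, 1 was higher at an unadjusted p below 0.05 (5.56%, against 3.11% of all genes tested). This was Hjurp, which loads the centromeric variant, with 36.3 ± 4.43 and 44.1 ± 6.54 FPKM (SD, n = 6).

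Of the 39 genes of G1/S and S phase, 3 were higher at an unadjusted p below 0.05 and 0 lower, and of the 22 genes of G2 and M phase, 2 were higher and 0 lower, which is 7.69% and 9.09% against 3.11% of all genes tested. E2f2, a transcription factor of S phase entry, had 3.60 ± 0.426 and 4.69 ± 0.483 FPKM (SD, n = 6), and its groups did not overlap, as in 0.0789% of all genes. Rfc3 and Rrm2, for loading the clamp and for making deoxynucleotides, differed by 0.13 and 0.20 on the log2(FPKM + 1) scale. Mki67 differed by 0.30 and Bub1, a kinase of the spindle checkpoint, by 0.24. Pcna differed by 0.07 and was not past the threshold. All of these had an adjusted p of 0.889 or above in limma. None of the RNAs without a poly(A) tail was past it other than Rpph1, the RNA of RNase P, which was higher by 0.37.

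Markers of other cell types were looked up in the same fit, in which none passed an adjusted p of 0.05. Of the 8 T cell markers, 5 were higher in the swimming group at an unadjusted p below 0.05, against 3.11% of all genes tested (Cd3d, Cd3g, Cd8a, Cd8b1 and Cd5), and the sum of all 8 was 4.19 to 10.5 FPKM in control and 7.12 to 19.6 FPKM in swimming tumors, with none at 0 in any tumor. Of the 5 NK cell markers Klrk1 was higher, and of the 6 B and plasma cell markers Jchain was. No marker of macrophages, neutrophils, fibroblasts, endothelium, skeletal muscle, adipocytes or the erythroid lineage was past this p. Of the colon epithelium markers, Epcam, Vil1 and Cdx2 were below the filter on low values in these tumors, and Cdx1 was not analysed here. The part of these cell types in the histone values was not tested.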

How the data were processed

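The authors sequenced RNA of 6 control and 6 swimming CT-26 tumors. The authors removed ribosomal RNA, mapped reads with HISAT2 2.0.5 and quantified genes with StringTie 1.3.3. The methods name hg38, the submitters' notes name hg38 and GRCm38, and the files list mouse Ensembl identifiers. The deposited files used here hold FPKM for each gene, from which the absolute depth cannot be read, so intervals for counting error are not given.

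The members and gene lists were chosen with earlier results of these data known. Symbols, coordinates and transcripts were taken by identifier from GENCODE M21 on GRCm38 (30542 of 30630 identifiers named), which lists 70 genes with the symbols, 66 of them in the files. The comparison was made on log2(FPKM + 1), a scale on which changes of weak genes appear smaller. A gene was tested if 6 or more tumors had 0.1 FPKM or more, which held for 19018 genes. limma 3.58.1 (R 4.3.3) was used with lmFit, eBayes (trend), no covariates and Benjamini-Hochberg adjustment. For single genes a two-sided exact permutation test ran over the 924 divisions of the tumors, with 0.00216 as its smallest p. Each tumor was from a different mouse and none was left out. The fit was tested on simulated data.

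Named are the 15 genes with the highest means, the 5 with the smallest p in each direction, the 3 most and 3 least variable ones with a mean of at least 1 FPKM, testis histones, Npat, Slbp, Lsm11, Pcna, Mki67 and list genes at an unadjusted p below 0.05. Other genes were named after their values were seen. Also chosen later were the list of RNAs without a poly(A) tail and the limits of 100 bases and 50% unique stretches. Alternatives were pseudocounts of 0.1 and 0.01 FPKM, a filter of 1 FPKM or none, no trend, quantile or trimmed-mean (TMM) normalization, sample weights, a replicate block, and leaving out single tumors or overlapping genes. Python 3.11.15, pandas 2.3.3 and matplotlib 3.10.9 were used for joins and plots.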

Additional observations from a re-analysis of the deposited data

Results flagged for a closer look

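The highest and the lowest tumor of each group of 6 were compared with the spread of the group by Dixon's test, for the 66 histone genes and for the sums of all genes and of each family. This gave 141 groups with differing values. The test flags about 1 in 20 such groups when values are normally distributed, or 7.05 here. It flagged 11, all of them single high tumors in genes with a mean below 1 FPKM and none in a sum. Values at or near 0 are not normally distributed, so the 11 cannot be read as more than chance gives. Swimming 4 had 1.38 FPKM of Hist1h1e, with 0.628 FPKM in the next highest swimming tumor, and 0.230 FPKM of Hist1h3f, with 0.103 FPKM in the next. Control 4 had 0.779 FPKM of Hist1h2ab, with 0.408 FPKM in the next highest control tumor, and 0.168 FPKM of Hist2h2bb, with 0.0394 FPKM in the next. Swimming 6 had 0.562 FPKM of Hist2h2ab, with 0.145 FPKM in the next. Control 5 had 0.485 FPKM of the pseudogene Hist3h2bb-ps, with 0.128 FPKM in the next. In the other 5 groups a single tumor was above 0, and the test flags such a group whatever that value is. These were Hist3h2bb-ps in swimming 3 (0.0646 FPKM), Hist2h2bb in swimming 3 (0.158 FPKM), Hist1h1a in swimming 5 (0.0788 FPKM), Hist1h2ba, the H2B gene of the testis, in swimming 1 (0.0376 FPKM), and Hist2h3b in control 5 (0.0308 FPKM).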

How the results depend on the processing

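No alternative brought a histone gene to an adjusted p below 0.05. At an unadjusted p below 0.05, 6 genes were counted. The count was 0 with the filter of 1 FPKM, which leaves 13 genes, and 3 with quantile normalization. It was 1 of the 25 genes with at least 50% unique stretches (4%, against 3.11% higher of all genes tested). This alternative was chosen after seeing the data. Without the genes that overlap a listed gene the count was 6. It ranged from 3 to 9 when a tumor was left out, with 3 without control 1 and without swimming 6, and 9 without swimming 1. These counts take both directions. Without swimming 4, 3 genes were higher and 2 lower in the swimming group, and without control 3, 5 were higher and 1 lower. In the other fits all genes counted were higher. The share of all genes tested is given for the main fit only, so the counts of the other fits have no share beside them. Hist1h2ad, Hist1h2ap and Hist1h3g were among the genes counted in every fit that tested them. Hist1h2bn, Hist1h3i and Hist1h4d were all lost without control 1, control 2, control 6, swimming 4 or swimming 6. The median difference of 0.05 became 0.150 and 0.151 with pseudocounts of 0.1 and 0.01 and -0.034 with the filter of 1 FPKM. With these pseudocounts the difference was 0.797 and 0.915 for Hist1h3i, 0.603 and 0.685 for Hist1h3g and 0.679 and 0.780 for Hist1h2bn. The summed difference of 1.38 FPKM ranged from -1.81 to 3.99 FPKM when a tumor was left out. Hist1h4n turned to 0.0239 with sample weights. Hist1h4f turned to 0.0635 and 0.0960 with pseudocounts of 0.1 and 0.01 and to 0.00913 with sample weights. When a tumor was left out, Hist1h2bg ranged from -0.0606 to 0.102, Hist1h2bk from -0.229 to 0.0336, Hist1h4n from -0.144 to 0.0843, Hist2h2ac from -0.11 to 0.000304 and Hist1h4f from -0.101 to 0.104, so their direction is not fixed by these data. The cause was not tested.

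The labels do not state that the replicate numbers pair the tumors. Same-numbered tumors had correlations of -0.32 to 0.00588 in their deviations from the group means. Their mean was -0.12, against 0.0246 for tumors of other numbers. Such correlations cannot exclude a pairing. A fit with a replicate block counted 7 genes, the 6 genes and Hist1h2af. Values of genes near 0.1 FPKM are limited by depth, which is lowest in control 2.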
